A study of Rattus norvegicus with 72 samples.

Results

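Genes of the actin cytoskeleton and of focal adhesions were described in 3 rat tissues, mammary gland, liver and adipose, taken in pregnancy or lactation under standard gravity, hypergravity or microgravity. The 10 genes named as candidates for a response to mechanical load were Actb, Actg1, Myh9, Svil, Itgb1, Tln1, Vcl, Flna, Ccn1 and Ccn2. A gene was measured where the platform annotation gave one of its probe sets, the groups of short array probes that are read together, that gene's symbol alone. Of the 10 genes, 9 met this rule through 17 of the 20826 probe sets with a single symbol, which cover 14217 genes. Actb was given no value, because both of its probe sets also list Actg1 and Actg1l1.

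Cells pull on their surroundings through filaments of actin and non-muscle myosin that end at focal adhesions, where integrins span the membrane and talin and vinculin couple them to actin. Tension on this system is known to send the coactivators YAP and TAZ to TEAD factors and to free the coactivator of serum response factor (SRF), and both routes raise transcription of cytoskeletal and matricellular genes. In the mammary gland, contractile myoepithelial cells surround the milk-secreting alveoli, and both epithelial layers hold to the basement membrane through integrins.

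Each value is a log2 signal, so a difference of 1 is a doubling, and levels of different genes were not set against each other. The same rats, by the codes in the labels, gave mammary gland, liver and adipose tissue in 4 groups: pregnant or lactating, at standard gravity or in hypergravity. A separate set held pregnant mammary gland only, from microgravity (FLT), from flight controls (FDS) and from vivarium controls (VIV). Strain, age, day of pregnancy or lactation and the dose of gravity were not given in the sources used here. Of the 15 groups, 12 had 5 arrays and the 3 of the microgravity set had 4. Whether arrays of the microgravity set are separate animals was not stated, so their p-values measure only the spread between arrays.

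The arrays M210H and A210H were left out, since the mean of 5 milk protein genes was 2.97 on the array labelled mammary and 13.1 on the array labelled adipose. That left 58 arrays with 4 in the lactating hypergravity groups of mammary gland and adipose tissue. In the groups used, this mean was 12.5 to 13.2 in mammary gland, the mean of 10 hepatocyte genes was 12.05 to 12.35 in liver, and the mean of 8 adipocyte genes was 9.76 to 10.8 in adipose tissue. On 8 arrays in use, called arrays with foreign markers below, the mean of the skeletal muscle or, outside liver, hepatocyte genes exceeded the median for that tissue and set by more than 2 log2 units. Skeletal muscle genes did so on M50H, M212H, A48S, A217H, VIVA and VIVC, and hepatocyte genes on M52S and M56H. By the same measure the milk protein mean was high on 3 further arrays, L55H (5.88), L214S (5.72) and A55H (5.85), where the tissue medians were 3.22 in liver and 2.97 in adipose tissue. Without these 3 arrays, a choice made after seeing the data, no member gained or lost a call. The rule for foreign markers did not use lymphocyte genes. Their mean was 7.50 on M60H, 7.69 on A56H and 8.94 on FDSB, above every other array of the same group. These arrays stayed in the fits without foreign markers. L212H had the lowest upper quartile of all arrays, 6.53 where the next lowest was 6.84. Array medians were 4.32 to 4.56 in the standard gravity and hypergravity set and 4.87 to 5.02 in the microgravity set, so the latter was compared only within itself.

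Stretches of 250 bases before the RefSeq transcription start (GRCr8 assembly) are shown for some, not all, of the members whose stretch holds a marked motif. Capitals mark the CArG box, the binding motif of SRF, or the TEAD motif CATTCC, which reads GGAATG on the other strand. They are Ccn2 at chr1:22624615-22624864, Actg1 at chr10:106120952-106121201, Svil at chr17:57462661-57462910, Vcl at chr15:3404801-3405050 (all on the minus strand) and Itgb1 at chr19:73602027-73602276 on the plus strand.
Ccn2: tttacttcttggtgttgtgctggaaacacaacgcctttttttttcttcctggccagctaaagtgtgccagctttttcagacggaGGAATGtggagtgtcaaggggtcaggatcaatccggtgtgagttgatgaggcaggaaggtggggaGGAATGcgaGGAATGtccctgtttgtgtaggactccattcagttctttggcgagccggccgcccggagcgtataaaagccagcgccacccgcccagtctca
Actg1: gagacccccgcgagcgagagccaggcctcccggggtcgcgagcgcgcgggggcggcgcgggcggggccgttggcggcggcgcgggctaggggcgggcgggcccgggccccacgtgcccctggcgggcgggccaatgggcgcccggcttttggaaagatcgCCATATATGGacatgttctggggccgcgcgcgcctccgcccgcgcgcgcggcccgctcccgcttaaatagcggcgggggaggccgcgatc
Svil: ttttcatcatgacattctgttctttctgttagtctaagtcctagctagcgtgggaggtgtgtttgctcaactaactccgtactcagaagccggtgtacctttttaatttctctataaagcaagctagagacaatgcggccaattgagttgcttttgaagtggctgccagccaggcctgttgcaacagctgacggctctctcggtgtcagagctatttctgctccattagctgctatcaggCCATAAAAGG
Vcl: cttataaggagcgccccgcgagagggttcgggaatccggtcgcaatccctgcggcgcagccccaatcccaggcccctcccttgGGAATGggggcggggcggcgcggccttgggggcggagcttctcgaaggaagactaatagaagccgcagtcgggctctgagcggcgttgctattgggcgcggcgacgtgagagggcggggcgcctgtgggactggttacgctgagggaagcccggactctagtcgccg
Itgb1: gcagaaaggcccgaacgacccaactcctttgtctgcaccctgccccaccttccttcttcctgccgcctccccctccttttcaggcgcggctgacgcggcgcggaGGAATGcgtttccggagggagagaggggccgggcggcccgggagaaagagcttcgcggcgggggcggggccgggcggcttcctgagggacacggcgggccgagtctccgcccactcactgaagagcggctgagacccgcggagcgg

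Ccn2 held CATTCC 3 times, starting 166, 101 and 92 bases before the start, and 0.0807% of 33469 promoters of this length held it at least 3 times. Vcl, Itgb1, Ccn1 and Flna each held it once, and 12.1% of all promoters held it at least once. A CArG box lay 90 bases before the start of Actg1 and 10 before that of Svil, and 1.5% of promoters held one. The listed starts used here for Svil, Flna and Vcl lie inside the spans of their genes. Neither motif was in the windows of Tln1 or Myh9. These matches describe the letters only.

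Members differed in both directions between lactating and pregnant mammary gland. At standard gravity the integrin subunit Itgb1 was 2.73-fold higher and non-muscle myosin Myh9 1.86-fold higher in lactation, while talin (Tln1) was 3.43-fold, filamin (Flna) 2.14-fold, Ccn2 2.08-fold and supervillin (Svil) 1.57-fold lower. Actg1, Vcl and Ccn1 did not pass the test. Thus 2 of 9 members were called higher, where 14.4% of all genes were, and 4 of 9 lower, where 25.7% were. A call is an adjusted p under 0.05. In whole tissue, fewer cells of a type and less RNA per cell cannot be told apart.

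Itgb1 (chr19:73602277-73650271) encodes the beta-1 subunit shared by many collagen, laminin and fibronectin receptors. Its signal was 8.78, 7.97, 7.85, 8.40 and 8.05 on the 5 pregnant arrays at standard gravity and 9.68, 9.50, 9.75, 9.76 and 9.60 on the 5 lactating ones. Every lactating array lay above every pregnant one, and the difference was 1.45 (SE 0.26, adjusted p = 0.0004). In hypergravity it was 8.03, 8.32, 9.13, 7.58 and 7.35 in pregnancy and 10.62, 9.96, 9.87 and 10.08 in lactation. Those groups did not overlap either, and the difference was 2.05 (SE 0.28, adjusted p = 7.2e-05), or 4.14-fold. The highest pregnant value, 9.13, came from M56H, where the mean of the hepatocyte genes was 9.87. Without the 4 mammary arrays that carry markers of another tissue, the differences were 1.50 and 2.47. That fit kept M60H, the lowest pregnant hypergravity array at 7.35, whose lymphocyte marker mean was 7.50. The second Itgb1 probe set was also higher in lactation, by 0.84 (SE 0.24, adjusted p = 0.012) at standard gravity and 1.24 (SE 0.26, adjusted p = 0.0018) in hypergravity.

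Tln1 (chr5:62583730-62613687) encodes the protein that binds the integrin tail and links it to actin. Its signal was 8.89, 9.26, 9.18, 9.42 and 9.21 in pregnancy and 7.21, 7.90, 7.10, 7.04 and 7.83 in lactation at standard gravity. All lactating arrays were the lower ones, with a difference of -1.78 (SE 0.25, adjusted p = 4.9e-05), the opposite direction to its integrin partner. Under hypergravity the signal was 9.68, 9.29, 8.13, 9.40 and 9.51 in pregnancy and 7.93, 7.69, 7.61 and 8.34 in lactation. M56H, at 8.13, fell within the lactating range, and the other pregnant arrays were all above it. The hypergravity difference was -1.31 (SE 0.27, adjusted p = 0.0016), a 2.48-fold lower signal, and -1.41 without the arrays with foreign markers.

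Vcl (chr15:3315069-3404891) encodes vinculin, which is recruited to stretched talin and strengthens the bond to actin. At standard gravity it was 10.15, 10.27, 10.24, 10.39 and 10.70 in pregnancy and 10.94, 10.79, 10.54, 10.55 and 10.66 in lactation, groups that overlap (difference 0.35, SE 0.21, adjusted p = 0.2). In hypergravity it was 10.36, 9.08, 9.90, 9.54 and 9.26 in pregnancy and 11.19, 10.66, 10.86 and 10.96 in lactation. Here the groups were apart by 1.29 (SE 0.21, adjusted p = 0.00026), or 2.44-fold. The highest of the pregnant hypergravity arrays, M50H at 10.36, had a skeletal muscle marker mean of 8.80, and without the arrays of this kind the difference was 1.64.

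Flna (chrX:157159051-157185559) encodes filamin A, which crosslinks actin into networks and binds integrin tails. It was 8.45, 8.91, 8.89, 9.18 and 8.87 in pregnancy and 7.47, 8.21, 7.49, 7.63 and 8.01 in lactation at standard gravity, without overlap (difference -1.10, SE 0.25, adjusted p = 0.0023). Pregnant hypergravity arrays had 9.39, 8.39, 7.63, 8.73 and 8.88, and lactating ones 7.54, 8.02, 7.57 and 7.56. The groups overlapped through M56H at 7.63, and the difference was -0.93 (SE 0.26, adjusted p = 0.013), or 1.91-fold lower. In a fit of those groups alone its adjusted p was 0.065.

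Myh9 (chr7:111224291-111304963) encodes the heavy chain of non-muscle myosin IIA, the motor of stress fibres. It was 10.33, 9.98, 9.58, 9.73 and 9.96 in pregnancy and 10.74, 10.89, 10.80, 10.84 and 10.79 in lactation at standard gravity. The lactating arrays lay close together above all pregnant ones, by 0.90 (SE 0.30, adjusted p = 0.026), and the call was lost without M52S (adjusted p = 0.058) or M48S (0.066). The hypergravity values were 9.61, 10.11, 10.62, 9.03 and 8.30 against 11.37, 11.34, 10.91 and 11.08, a difference of 1.64 (SE 0.32, adjusted p = 0.001), or 3.12-fold. A probe set left out by the rule, because its annotation repeats the symbol Myh9, gave 0.86 (adjusted p = 0.022) and 1.35 (adjusted p = 0.0024).

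Actg1 (chr10:106118106-106120951) encodes cytoplasmic gamma-actin, nearly identical to the beta-actin of Actb. Whether its probes also bind Actb transcripts was not tested. In hypergravity it was 9.21, 10.26, 9.71, 9.14 and 8.62 in pregnancy and 10.82, 10.53, 9.58 and 10.38 in lactation. The groups overlapped, with a difference of 0.94 (SE 0.32, adjusted p = 0.034) or 1.92-fold. In a fit of these groups alone the adjusted p was 0.09, and the dim second probe set had the opposite sign (-0.25, adjusted p = 0.13). The call was lost without any 1 of M50H, M59H, M60H, M203H, M206H or M217H, with adjusted p from 0.069 to 0.12. At standard gravity the difference was 0.35 (SE 0.30, adjusted p = 0.42).

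Svil (chr17:57343910-57539508) encodes supervillin, which ties actin and myosin to the membrane. It was 8.97, 9.90, 9.91, 9.79 and 10.15 in pregnancy and 8.95, 9.19, 9.12, 9.11 and 9.08 in lactation at standard gravity, overlapping through M42S. The difference was -0.65 (SE 0.22, adjusted p = 0.025). The call was lost without any 1 of M44S, M48S, M57S or M201S (adjusted p from 0.056 to 0.071) and without the arrays with foreign markers (0.061). Its probe sets went against each other: the second fell by 0.59 (adjusted p = 0.024) and the third was 1.41 higher in lactation (SE 0.34, adjusted p = 0.0035). In hypergravity the brightest differed by -0.18 (adjusted p = 0.6) and the third by 1.19 (adjusted p = 0.019).

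Ccn2 (chr1:22621498-22624614) and Ccn1 (chr2:237222730-237225689) encode secreted matricellular proteins that are standard readouts of YAP and TAZ. Ccn2 was 9.33, 9.93, 9.62, 9.46 and 10.34 in pregnancy and 8.48, 9.81, 7.91, 8.21 and 8.99 in lactation at standard gravity. The lactating arrays were lower apart from M202S at 9.81, and the difference was -1.06 (SE 0.32, adjusted p = 0.016); without M214S the adjusted p was 0.052. In hypergravity it was 8.57, 8.85, 8.36, 9.44 and 9.41 against 9.25, 9.11, 8.93 and 8.22, a difference of -0.05 (SE 0.34, adjusted p = 0.93). Ccn1 had group means of 3.56 to 4.36 in these 4 groups, below or near the array medians, and differed by -0.26 (adjusted p = 0.48) and -0.13 (adjusted p = 0.75).

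In hypergravity, then, 4 of 9 members were higher in lactation (Itgb1, Myh9, Vcl and Actg1), against 13.5% of genes, and 2 of 9 lower (Tln1 and Flna), against 21.2%. The median over the 9 was -0.26 at standard gravity and -0.05 in hypergravity, beside -0.10 and -0.11 over all genes.

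**Figure D1:**
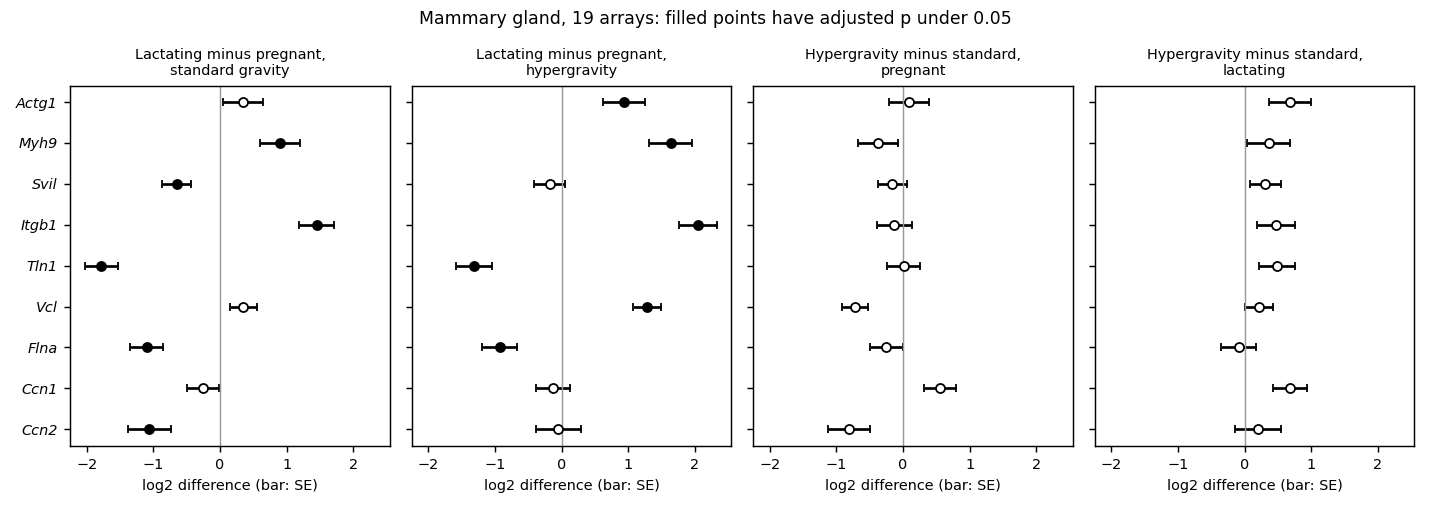
Log2 differences of the 9 members in mammary gland (horizontal axis; bars are standard errors) for the stage comparison at each gravity and the gravity comparison at each stage, over 19 arrays. Filled points have an adjusted p under 0.05: 6 in each of the stage panels and 0 in each of the gravity panels, with Itgb1 at 1.45 and 2.05 and Tln1 at -1.78 and -1.31.

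The wider pathway had calls in both directions, to be read beside the 14.4% of all genes called higher and 25.7% lower at standard gravity and the 13.5% and 21.2% in hypergravity. Of 24 measured genes for actin isoforms and filament turnover, 8 were higher and 3 lower in lactation at standard gravity, with a median of 0.38 (-0.10 over all genes). Among them were profilin Pfn1, which feeds actin monomers to growing filaments (2.36, SE 0.66, adjusted p = 0.01), the filament-severing cofilin Cfl2 (1.60, SE 0.22, adjusted p = 3e-05), the Arp2/3 subunit Arpc1b (1.23, adjusted p = 0.011) and the capping protein Capza2 (1.09, adjusted p = 5.3e-05). In hypergravity 14 were higher and 1 lower, with a median of 0.86, led by Pfn1 (2.84), the cortical branching regulator Cttn (2.06, adjusted p = 3.7e-07), Cap1 (1.76) and Cfl2 (1.38).

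Of 33 actomyosin and crosslinking genes, 11 were higher and 7 lower in lactation at standard gravity (median 0.09), where 14.4% and 25.7% of all genes were. The non-muscle myosin Myh14 fell by 2.50 on the log2 scale (SE 0.25, adjusted p = 1.8e-06) while Myh9 rose, and the membrane linkers ezrin (Ezr, -1.51, adjusted p = 2.7e-06) and moesin (Msn, 1.51, adjusted p = 0.0011) also went apart. The smooth muscle gene Tagln was 1.52 higher (adjusted p = 0.013). In hypergravity 17 were higher and 3 lower (median 0.40), among them Tagln (2.26) and Tagln2 (1.65).

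Of 30 focal adhesion and integrin genes, 6 were higher and 12 lower at standard gravity (median -0.53), against 14.4% and 25.7% of all genes. The laminin-binding integrin subunits Itga3 (-3.15, SE 0.37, adjusted p = 8.7e-06) and Itgb4 (-2.24, SE 0.27, adjusted p = 1.1e-05) and the actin elongation factor Enah (-2.36, adjusted p = 3.7e-06) were lower, and the collagen-binding subunit Itga1 was higher (1.63, adjusted p = 0.00086). In hypergravity 7 were higher and 7 lower (median -0.13), among them Itga3 (-2.63), Tns3 (-1.61), Itgb5 (1.52) and Itga1 (1.42).

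Of 29 genes of the YAP/TAZ and SRF axis, 1 was higher and 7 lower in lactation at standard gravity (median -0.21). Against 14.4% and 25.7% of all genes, the share of lower ones was near the background. The higher one was Ccn3, a family member of Ccn1 and Ccn2 (4.61, SE 0.28, adjusted p = 8.4e-09), and the TEAD factors Tead3 (-1.79) and Tead2 (-1.24) and the LIM protein Ajuba (-1.88) were among the lower ones. In hypergravity 6 were higher and 2 lower (median 0.28), including the SRF target Fos (2.18, adjusted p = 0.0014), Ccn3 (1.44), Ajuba (-1.38) and Sav1 (0.94).

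Some cell type markers were called in the same comparison, where at standard gravity 14.4% of all genes were higher and 25.7% lower. Their part in the results was not tested. Of 6 macrophage genes, 5 were lower in lactation at standard gravity, and their mean ran from 8.83 to 9.48 in pregnancy and from 7.38 to 7.88 in lactation. Of 7 luminal epithelial genes, 5 were lower, with means of 8.99 to 9.88 and 8.29 to 8.50. Of 7 fibroblast genes 2 were lower, a share near that of all genes, with means of 10.03 to 10.75 and 10.12 to 10.24. The 9 myoepithelial and smooth muscle genes had 2 higher and 2 lower, with means of 7.40 to 7.72 and 7.29 to 8.01. In hypergravity the macrophage mean was 8.54 to 9.23 in pregnancy and 8.27 to 8.96 in lactation, and the luminal mean 9.10 to 9.94 and 9.48 to 10.5. The myoepithelial and smooth muscle mean was 6.87 to 7.74 in pregnancy and 7.63 to 8.02 in lactation there. The fibroblast mean was 9.56 to 10.25 and 9.72 to 10.60.

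Hypergravity itself, the question the candidates were chosen for, gave no call for any member in mammary gland at either stage. In pregnancy 0 of 9 were called by limma, and 0.00703% of all genes were. Vcl differed by -0.72 (SE 0.20, 95% interval -1.13 to -0.31, adjusted p = 0.67), Ccn2 by -0.81 (-1.49 to -0.13, adjusted p = 0.88) and Ccn1 by 0.55 (0.04 to 1.06, adjusted p = 0.91). These 3 of 9 had an unadjusted p under 0.05, and 4 of 5 hypergravity arrays had less Vcl than every standard gravity array. The remaining 6 differences ran from -0.38 (Myh9) to 0.09 (Actg1). Without the arrays with foreign markers Vcl became -1.05 (adjusted p = 0.093), Myh9 -0.82 (adjusted p = 0.42), Itgb1 -0.41 in place of -0.13, Svil -0.28 in place of -0.16 and Tln1 0.27 in place of 0.01, while Ccn2 became -0.57, and none was called. That fit kept M60H, high in lymphocyte markers, where Myh9 was 8.30, the lowest of its group. Leaving out 1 array at a time moved Myh9 between -0.65 and -0.07.

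In lactation 0 of 9 members were called by limma, although 12.4% of all genes were; Actg1 and Ccn1, 2 of 9, had an unadjusted p under 0.05, and both were called with array weights. Differences ran from -0.09 for Flna to 0.68 for Actg1 and Ccn1, and the median was 0.36 beside 0.02 over all genes. Itgb1 was 9.50 to 9.76 at standard gravity and 9.87 to 10.62 in hypergravity, Myh9 10.74 to 10.89 and 10.91 to 11.37, and Svil 8.95 to 9.19 and 9.32 to 9.48. The groups of these 3 of 9 genes did not overlap, as was so for 18.8% of all genes, and the differences of 0.47, 0.36 and 0.31 had adjusted p-values of 0.41, 0.65 and 0.55. Ccn1 (0.68, SE 0.26, adjusted p = 0.12) was 3.43 to 3.67 at standard gravity and 5.01, 4.20, 3.40 and 4.32 in hypergravity. The low hypergravity array, M212H, carries skeletal muscle markers at a mean of 8.23. Without the arrays of this kind Ccn1 differed by 0.95 (SE 0.23, adjusted p = 0.019).

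Other genes of the system passed in lactation, where 6.22% of all genes were higher in hypergravity and 6.23% lower. In hypergravity 6 of 29 YAP/TAZ and SRF genes were higher and 1 lower (median 0.31). Fos rose by 2.07 (SE 0.44, adjusted p = 0.0043), the YAP target Ankrd1 by 1.91 (SE 0.47, adjusted p = 0.013) and the YAP-binding Amotl2 by 1.39 (SE 0.14, adjusted p = 3.7e-06), while Ccn3 fell by 3.52 (SE 0.30, adjusted p = 9.2e-07), or 11.5-fold. Of 33 actomyosin genes 7 were higher and 1 lower, with Myh14 up by 1.85 (adjusted p = 0.00017), Rnd3 by 1.78, Ezr by 0.81 and the crosslinker Actn4 by 0.74. Focal adhesion genes had 3 higher and 3 lower of 30, among them Itgb4 (1.56, adjusted p = 0.0015), Enah (1.16), Bcar1 (-1.01) and Cav1 (-0.88). Cttn was the 1 of 24 actin turnover genes called (1.07, adjusted p = 0.00032). Beside these, 6 of 7 luminal markers were higher, with means of 8.29 to 8.50 at standard gravity and 9.48 to 10.5 in hypergravity, as was 1 of 6 macrophage markers; their part was not tested.

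The effect of stage was tested for a difference between gravities. Of 9 members 0 were called by limma, 5.65% of all genes were, and 2 members (Vcl and Ccn2) had an unadjusted p under 0.05. Vcl came nearest: its stage difference was larger in hypergravity by 0.94 (SE 0.29, 95% interval 0.34 to 1.54, adjusted p = 0.078). Its second probe set, equally bright, gave 0.75 (SE 0.19, adjusted p = 0.028), and without the arrays with foreign markers the first gave 1.29 (adjusted p = 0.01). The value for Ccn2 was 1.01 (95% interval 0.02 to 2.00, adjusted p = 0.33). Genes called in the lists were Cttn (1.26), Myh14 (1.93), Actn4 (1.06), Iqgap1 (0.97), Itgb4 (1.86), Bcar1 (-1.23), Ccn3 (-3.16), Axl (1.22) and Amotl2 (1.06), with adjusted p from 0.00022 to 0.039. Cell type markers were called in the same test: 4 of 7 luminal epithelial genes (Krt7 2.77, Krt8 1.54, Krt18 1.40 and Epcam 1.02), the macrophage gene Cd14 (4.03) and the endothelial gene Kdr (-1.34). Their part was not tested.

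Supervillin was the 1 member called for hypergravity in any tissue, in liver of pregnant rats. Its signal was 8.08, 7.13, 7.10, 7.38 and 7.65 at standard gravity and 9.31, 8.97, 9.08, 8.66 and 8.60 in hypergravity. All 5 hypergravity arrays lay above all 5 standard gravity arrays, by 1.46 (SE 0.23, 2.75-fold, adjusted p = 0.015). Thus 1 of 9 members was called higher in a comparison where 0.0492% of genes were, 7 in all. The second probe set gave 8.22, 7.17, 7.29, 6.95 and 7.50 against 9.16, 9.16, 9.02, 8.50 and 8.54, a difference of 1.45 (SE 0.25, adjusted p = 0.021). The third, 3.98 ± 0.99 against 7.05 ± 0.64 (SD, n = 5 each), differed by 3.07 (SE 0.61) with an adjusted p of 0.053, and the remaining pair of dim probe sets also had no overlap between groups. The call of the brightest was lost without L48S (adjusted p = 0.066), L50H (0.057) or L56H (0.05).

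In lactating liver Svil was 8.82, 8.09, 8.56, 8.55 and 8.06 at standard gravity and 8.50, 8.14, 9.34, 8.73 and 9.16 in hypergravity, a difference of 0.36 (SE 0.23, adjusted p = 0.49). The pregnant standard gravity group was thus the low one of 4, and its difference from lactation at the same gravity was 0.95 (SE 0.23, adjusted p = 0.067). The test of the difference between stages in the hypergravity effect gave -1.10 (SE 0.33, adjusted p = 0.21). Hepatocyte marker means were 12.05 to 12.35 and smooth muscle marker means 3.29 to 3.90 over the 4 liver groups. The mean of 6 endothelial genes was 7.63 to 8.05 in pregnant liver at standard gravity and 7.45 to 7.54 in hypergravity, without overlap, though none of the 6 was called (Vwf had -0.94, adjusted p = 0.21). The part of these markers was not tested. Without L55H and L214S, the liver arrays high in milk protein genes, the Svil difference in pregnancy was 1.45 (SE 0.26, adjusted p = 0.039).

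**Figure D2:**
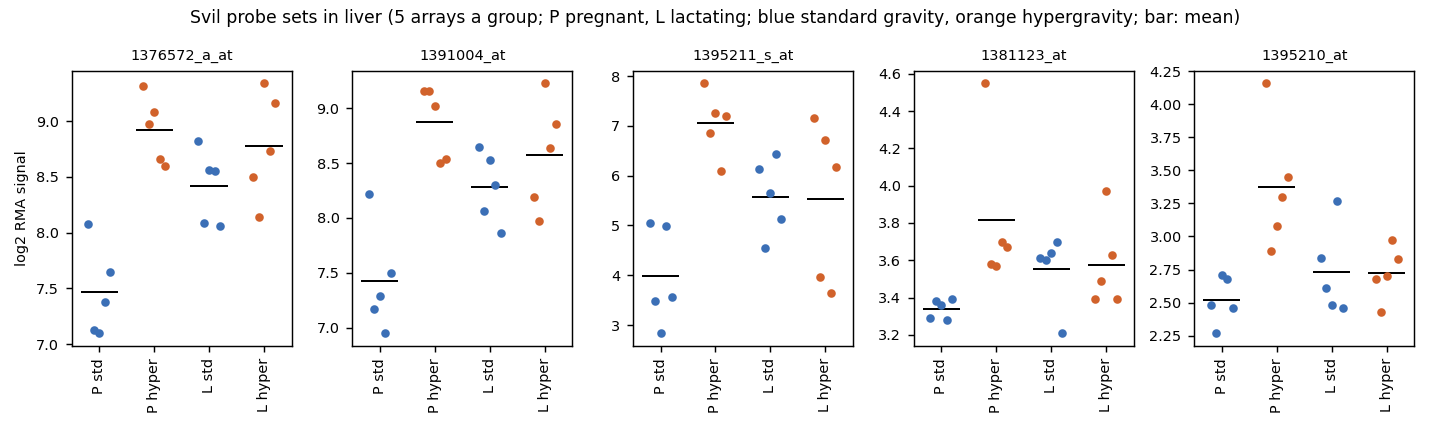
Log2 signal (vertical axis, own scale per panel) of the 5 Svil probe sets on each liver array, by stage (P pregnant, L lactating) and gravity, with group means as bars. In pregnancy the hypergravity arrays of the leftmost panel sit between 8.60 and 9.31 and the standard gravity arrays between 7.10 and 8.08.

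Filamin was the other member called in liver. In hypergravity Flna was 3.89, 4.58, 4.79, 4.43 and 4.59 in pregnancy and 5.45, 5.43, 5.11, 4.85 and 5.68 in lactation. This is a dim signal, since the medians of these arrays were 4.32 to 4.45. The groups did not overlap, with a difference of 0.85 (SE 0.18, 1.8-fold, adjusted p = 0.011), opposite in sign to mammary gland, though the difference between tissues was not tested. This was 1 of 9 members called higher, against 1.83% of genes, and a fit of only these groups gave an adjusted p of 0.055. In liver, 0 of 9 members were called by limma for stage at standard gravity (0.732% of genes), for hypergravity in lactation (0.485%) and for the interaction (0.197%), where 2, 1 and 1 had an unadjusted p under 0.05. Ccn2 was 6.17 to 7.14 by group mean and differed between gravities by -0.75 (SE 0.34, adjusted p = 0.6) in pregnancy and -0.92 (SE 0.34, adjusted p = 0.26) in lactation, where L212H at 7.74 was the high hypergravity array. Without L212H, the array with the low upper quartile, the lactation difference was -1.30 (SE 0.26, adjusted p = 0.051) and the stage difference of Flna was 0.96 (adjusted p = 0.0048).

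Some other genes of the system were called in liver. At standard gravity, 3 of 29 YAP/TAZ and SRF genes were lower in lactation, against 0.408% of all genes: Fos (-2.19, SE 0.42, adjusted p = 0.015), Egr1 (-1.31, adjusted p = 0.022) and Junb (-0.98, adjusted p = 0.0011). Of the actomyosin genes the bundling protein Pls3 was higher (0.65, adjusted p = 0.032 by limma), as were 0.324% of all genes. In hypergravity Ccn3 was lower in lactation (-2.82, adjusted p = 0.014), as was Tns3 (-0.91, adjusted p = 0.0044), and Lims2 was higher (0.92, adjusted p = 0.024). Of all genes 2.54% were lower and 1.83% higher there. For hypergravity in pregnancy, where Svil was called, no gene of the 4 lists was, and 0.127% of all genes were. Coro1c had 0.57 (adjusted p = 0.16 by limma).

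In adipose tissue 0 of 9 members were called by limma in any of 5 comparisons. An unadjusted p under 0.05 was reached by 1 member, Myh9, for stage at standard gravity (0.54), by 1, Ccn1, for stage in hypergravity, and by 0 in the other 3. Of all genes 0.00703% were called for stage at standard gravity, and 0.0% for stage in hypergravity, 0.0% for hypergravity in pregnancy, 0.0% for hypergravity in lactation and 0.0% for the interaction. For stage in hypergravity the groups of 2 of 9 members did not overlap, where those of 1.98% of all genes did not. They were Ccn1, lower in lactation by 0.98 on average (4.02 to 4.68 against 4.88 to 6.18), and Svil, which differed by 0.30. Both had an adjusted p of 1.0. Flna was 7.16, 10.81, 7.79 and 7.57 in the lactating hypergravity group and 7.45, 9.77, 7.75, 7.64 and 6.90 in the pregnant standard gravity group. The high arrays, A206H and A44S, had means of the 9 myoepithelial and smooth muscle genes of 8.71 and 7.73. On the other arrays of these groups this mean was 4.13 to 5.75 and 3.46 to 5.34. The part of these markers was not tested.

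In the microgravity set, 0 of 9 members were called for flight against the flight control (0.506% of genes), flight against vivarium (0.626%) or flight control against vivarium (0.0%), by limma; 1, 1 and 0 members had an unadjusted p under 0.05. Both flight comparisons share the flight arrays. Ccn2 had the lowest unadjusted p against the vivarium: it was 9.09, 10.38, 10.19 and 10.12 in vivarium, 10.23, 10.64, 10.32 and 10.34 in the flight control and 10.27, 10.69, 11.19 and 11.10 in flight. The groups overlapped, with flight above vivarium by 0.86 (SE 0.26, 95% interval 0.29 to 1.43, adjusted p = 0.23) and above the flight control by 0.43 (-0.14 to 1.00, adjusted p = 0.52). The low vivarium array, VIVA, carries skeletal muscle markers, and without it and VIVC the first difference was 0.56 (adjusted p = 0.73).

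Differences from the flight control were 0.14 for Itgb1, 0.05 for Svil, -0.03 for Vcl, -0.12 for Tln1, -0.15 for Myh9 and -0.28 for Flna, and the widest of their 95% intervals was -0.54 to 0.30 (Tln1). Actg1 was 9.55, 9.52, 9.54 and 9.45 in the flight control and 9.22, 9.54, 9.11 and 9.16 in flight, lower on 3 of 4 flight arrays (-0.26, SE 0.11, adjusted p = 0.34). Ccn1 spread widely, with 4.14, 7.28, 6.67 and 3.85 in the flight control, and its interval of -1.49 to 1.47 leaves it unresolved at this number of arrays. No gene of the 4 lists was called. The smallest p-values against the flight control belonged to Tmsb4x (-0.43, adjusted p = 0.19), Lcp1 (0.55, adjusted p = 0.23), Tln2 (-0.45, adjusted p = 0.18) and Tead1 (0.69, adjusted p = 0.064).

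**Figure D3:**
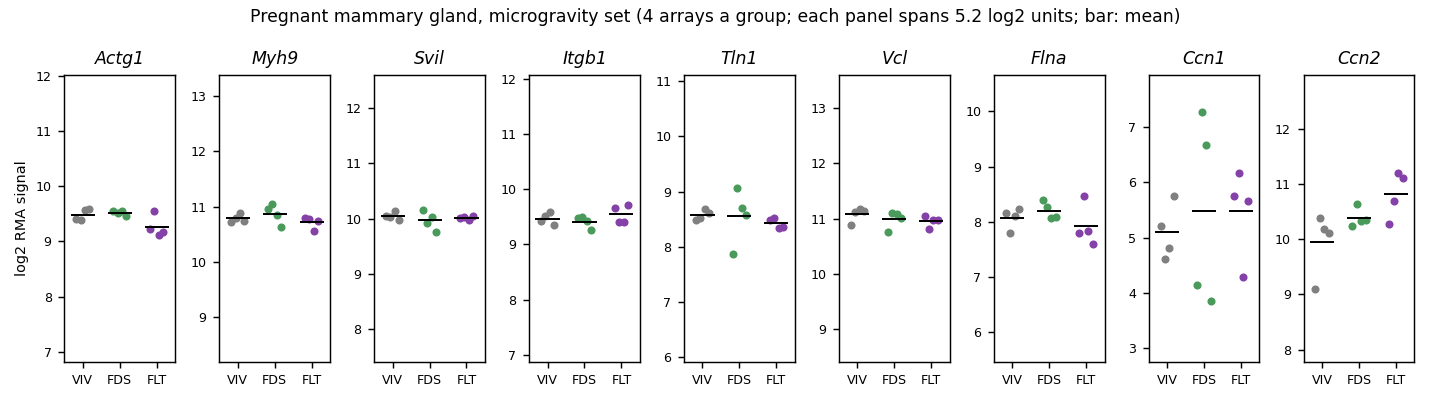
Log2 signal (vertical axis, each panel spanning the same range) of the 9 members on the 12 pregnant mammary arrays of the microgravity set, 4 per group, with group means as bars (VIV vivarium control, FDS flight control, FLT microgravity). Ccn2 has means of 9.95, 10.38 and 10.81 in that order with overlapping arrays.

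Levels of most members differed between tissues, and liver was the low one. Each comparison set the mean of the 4 stage and gravity groups of a tissue against that of another. Flna averaged 4.46 to 5.30 in the liver groups, 7.67 to 8.86 in the mammary groups and 7.58 to 8.33 in the adipose groups. It was 10.4-fold higher in mammary gland than in liver (3.38, SE 0.19, adjusted p = 1.5e-21) and 8.44-fold lower in liver than in adipose tissue. The liver array medians were 4.32 to 4.45, so these folds rest on a dim liver signal. Ccn2 was 5.43-fold higher in mammary gland than in liver (2.44, SE 0.23, adjusted p = 1.2e-13), Tln1 3.01-fold (1.59), Svil 2.09-fold (1.06), Actg1 1.98-fold (0.98) and Vcl 1.63-fold (0.70). That made 6 of 9 called higher, against 41.2% of genes, while Myh9 (0.09), Itgb1 (0.17) and Ccn1 (0.09) were not called. These are averages over both stages. By group means, standard gravity first, Itgb1 was below liver in pregnancy (8.21 and 8.08 against 8.92 and 8.99). In lactation it was above liver (9.66 and 10.13 against 8.8 and 8.69). Myh9 went the same way (9.92 and 9.53 against 10.25 and 10.18, then 10.81 and 11.18 against 10.32 and 10.31). Tissues were not tested within a stage. Other probe sets differed here. Myh9 was lower in mammary gland by the probe set that repeats its symbol (-0.44, adjusted p = 0.0016 by limma). Itgb1 was higher by its second (0.45, adjusted p = 0.00021) and, without M60H, by its first (0.22, adjusted p = 0.048). The second of Actg1 gave 0.06 (adjusted p = 0.49). That probe set is dim, with a mean of 2.85 over the 58 arrays, below the array medians of 4.32 to 4.56.

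All 9 members were called lower in liver than in adipose tissue, against 33.6% of genes, from Flna (-3.08), Ccn2 (-2.32) and Svil (-2.0, 4.01-fold, adjusted p = 3.2e-21) to Myh9 (-0.32, adjusted p = 0.018). By the probe set that repeats its symbol Myh9 turned to 0.15 (adjusted p = 0.27), and by its dim second probe set Actg1 turned from -0.93 to 0.06 (adjusted p = 0.5). Myh9 became -0.18 (adjusted p = 0.16) with each array centred on its median. That centring shifts the median difference of all probe sets by -0.14 here and by 0.13 between mammary gland and liver. Mammary gland and adipose tissue were closer. Averaged over the groups, Tln1 was higher in mammary gland (0.40, SE 0.12, adjusted p = 0.0041 by limma), which made 1 of 9, against 34.3% of genes. Its mean was above adipose tissue in pregnancy (9.19 and 9.2 against 7.82 and 8.02) and below it in lactation (7.41 and 7.89 against 8.02 and 8.24). Called lower were 4 of 9, against 26.6%: Itgb1 (-0.97), Svil (-0.94), Ccn1 (-0.75) and Vcl (-0.33). The third Svil probe set did not show this order, with group means of 5.97 to 7.78 in mammary gland and 5.76 to 7.84 in adipose tissue. Myh9 (-0.23, adjusted p = 0.12) was called lower with array weights (-0.31, adjusted p = 0.0042), without the arrays with foreign markers (-0.30, adjusted p = 0.036), without M56H (-0.30, adjusted p = 0.021) or without A60H (-0.28, adjusted p = 0.041). Flna (0.30, adjusted p = 0.2) was called higher with array weights (0.51, adjusted p = 0.0079), without A206H (0.51, adjusted p = 0.0035) or without A44S (0.42, adjusted p = 0.041). Adipose RNA was extracted with another kit, so kit and tissue cannot be told apart in comparisons with it.

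Between mammary gland and liver, 24 of 33 actomyosin genes were higher in mammary gland and 7 lower, where 41.2% and 31.9% of all genes were, led by smooth muscle myosin Myh11 (5.90), Tpm2 (5.89), Ezr (4.26) and Tagln (3.79). Of 24 actin turnover genes 18 were higher and 5 lower, led by the smooth muscle actins Actg2 (5.98) and Acta2 (5.19), Gsn (5.04) and the skeletal muscle actin Acta1 (4.14). Acta1 is also one of the skeletal muscle markers, whose mean was high on the mammary arrays M50H (8.80) and M212H (8.23). The part of these arrays in its value was not tested. Of 30 focal adhesion genes 19 were higher and 8 lower, with Enah (4.82), Cav1 (4.40), Itga6 (3.71) and Itgb4 (3.18) ahead. The smooth muscle and myoepithelial marker mean was 6.87 to 8.02 in these mammary groups and 3.29 to 3.90 in liver. Those markers share Acta2, Actg2, Myh11, Cnn1 and Tagln with the lists, and their part was not tested.

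**Figure D4:**
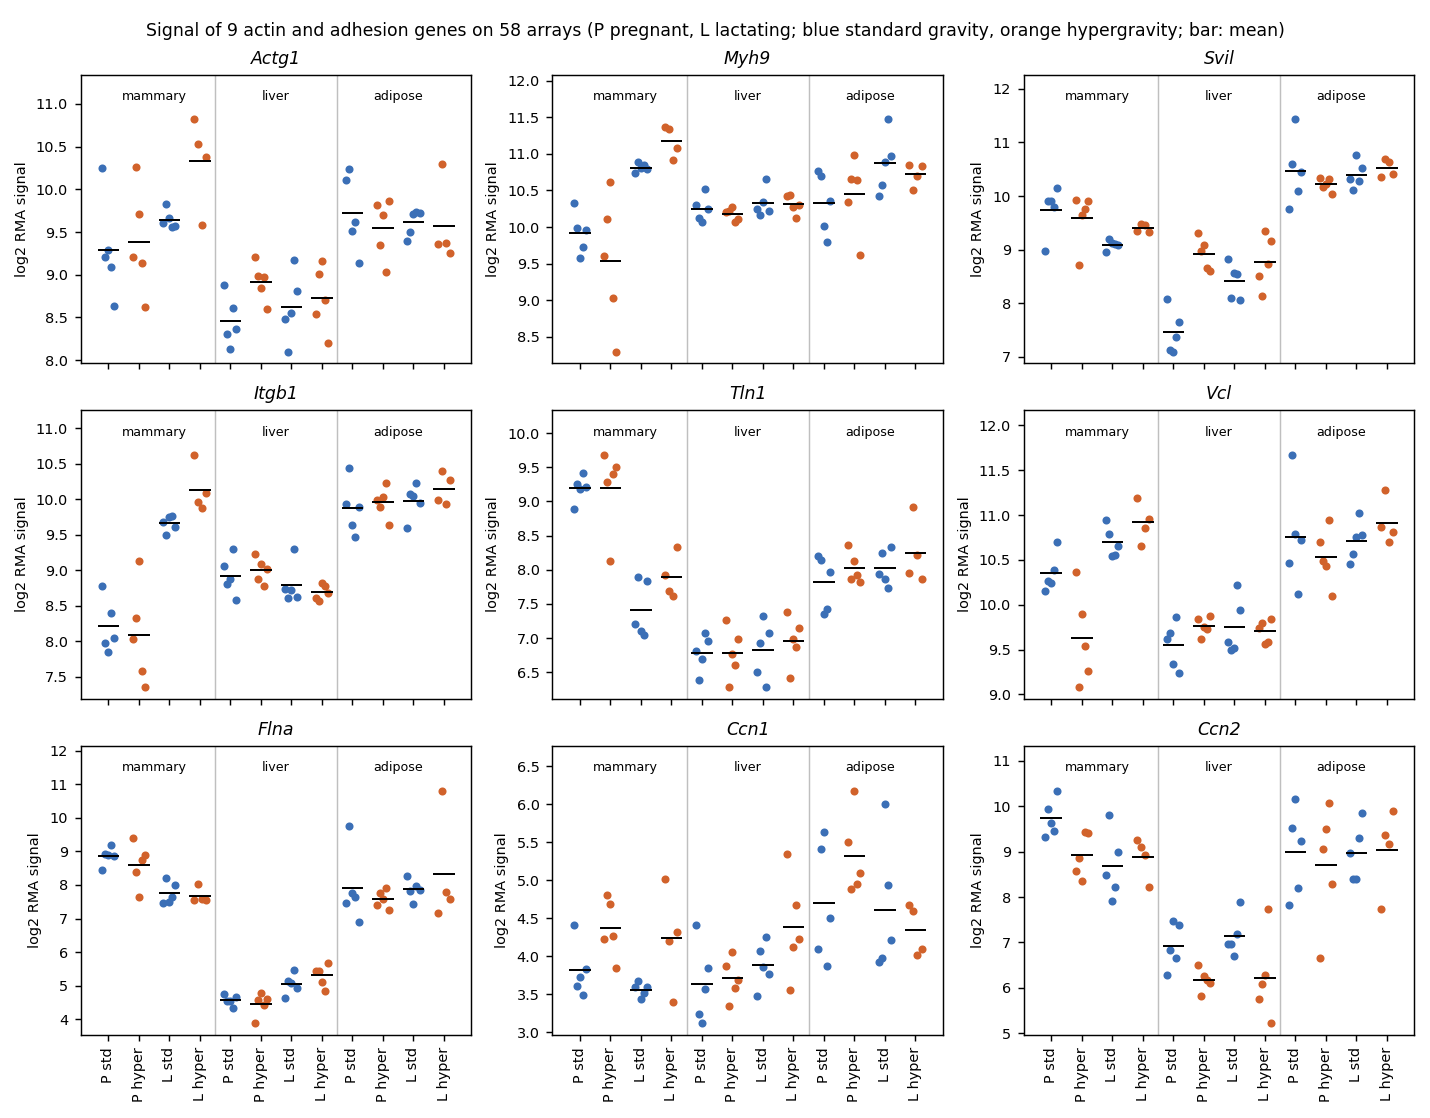
Log2 signal (vertical axis, own scale per panel) of the 9 members on 58 arrays by tissue, stage (P pregnant, L lactating) and gravity (std standard gravity, hyper hypergravity), with group means as bars. Flna is lowest in liver, with group means of 4.46 to 5.30, and Itgb1 is lowest in pregnant mammary gland, with means of 8.21 and 8.08.

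Among the group levels, Flna spanned the widest range, then Ccn2 and Svil. Ccn2 averaged 6.17 to 7.14 in the liver groups, 8.68 to 9.74 in the mammary groups and 8.71 to 9.04 in the adipose groups. Svil ran from pregnant liver at standard gravity (7.47 ± 0.41; SD, n = 5) through the other liver groups (8.42 to 8.93) and the mammary groups (9.09 to 9.74) to the adipose groups (10.22 to 10.52). Itgb1 ran from the pregnant mammary groups (8.08 ± 0.70 in hypergravity and 8.21 ± 0.38 at standard gravity; SD, n = 5 each) through the 4 liver groups (8.69 to 8.99) to lactating mammary gland (9.66 ± 0.11, n = 5, and 10.13 ± 0.34, n = 4) and the adipose groups (9.87 to 10.14). Within the pregnant mammary groups, the liver groups and the adipose groups, neighbouring means differed by less than the larger of their SDs. Tln1 was ordered differently, with pregnant mammary gland highest (9.19 ± 0.19 and 9.20 ± 0.62; SD, n = 5 each), adipose tissue (7.82 to 8.24) and lactating mammary gland (7.41 ± 0.41, n = 5, and 7.89 ± 0.33, n = 4) side by side below it, and liver lowest (6.78 to 6.96). Over the 19 mammary arrays the genes whose signal followed that of Ccn2 most closely were L1cam (Pearson r = 0.80), Naa60 (0.79) and Rph3al (0.78). These r values are a description over arrays that share 4 groups and 1 normalization.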

How the data were processed

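The series holds 72 Affymetrix rat arrays. The authors deposited log2 signals for 31042 probe sets, made with RMA per the submitters' processing notes; its version and the arrays normalized together are not given in the sources used here. Per the labels' protocols, mammary and liver RNA was extracted with TRIzol and adipose RNA with RNeasy Lipid, and RNA was amplified with the NuGEN Ovation system. Groups came from the titles.

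Each comparison was a contrast in limma 3.58.1 under R 4.3.3 (lmFit, eBayes, group means; separate fits of 19 mammary, 20 liver, 19 adipose, 12 microgravity set and 58 arrays across tissues), two-sided, with Benjamini-Hochberg adjustment over all 31042 probe sets and no filter; the script was tested on simulated data. Standard errors (SE) are limma's moderated ones. The number of arrays limits the precision. Symbols came from the platform annotation (20826 probe sets with 1 symbol, 436 with several, 9780 with none) and positions from the RefSeq table of GRCr8, matched for Myh9 by symbol. Each gene has its brightest single-symbol probe set over the 58 arrays. Members and lists were chosen with earlier results of these data known. From each list, up to 4 called genes with the largest change were named, or the 1 with the smallest p. Some of these are not reported here.

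Same-coded arrays come from the same rat per the labels' codes: 40 of 57 pairs of tissues had deviations correlated over 0.1 (range -0.05 to 0.33). Alternatives were array weights, a filter on dim probe sets, median centring, another probe set, other sets of arrays, replicate blocks and leaving out each array.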

Additional observations from a re-analysis of the deposited data

Results flagged for a closer look

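Chance alone sets an array apart in about 1 of 20 groups, and 7 of the 135 combinations of member and group tested had an array far from the others. In lactating adipose tissue in hypergravity, A206H stood above the rest for Actg1 (10.30, others 9.26 to 9.37) and for Flna (10.81, others 7.16 to 7.79). Its mean of smooth muscle and myoepithelial markers was 8.71. In pregnant mammary gland in hypergravity, Tln1 was 8.13 on M56H (others 9.29 to 9.68), where the hepatocyte marker mean was 9.87, and Svil was 8.71 on M55H (others 9.64 to 9.93). Flna was 8.02 on M206H in lactating mammary gland in hypergravity (others 7.54 to 7.57). Itgb1 was 9.30 on L216S in lactating liver at standard gravity (others 8.60 to 8.74). Vcl was 10.88 on VIVA among the vivarium arrays (others 11.12 to 11.18), where the skeletal muscle marker mean was 8.18.

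The mammary stage difference of Vcl differed between gravities by its second probe set, by 0.75 (SE 0.19, adjusted p = 0.028 with limma), where it was 0.07 at standard gravity and 0.82 in hypergravity. By the first probe set this difference was 0.94 (adjusted p = 0.078).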

How the results depend on the processing

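Of 4052 repeats of member values under other settings, 4008 kept their side of the threshold and, where called, their direction. Another 22 lost a call, 19 gained one and 3 reversed. A value not called in the main fit counted as kept while it stayed uncalled, whatever its sign. Single arrays were left out in 2826 of the repeats, so the count says little about robustness. Reversed were Actg1 by its dim second probe set in the mammary stage comparison in hypergravity (-0.25, adjusted p = 0.13) and between liver and adipose tissue (0.06, adjusted p = 0.5), and Myh9 between liver and adipose tissue by the probe set that repeats its symbol (0.15, adjusted p = 0.27), a choice made after seeing the data. The cause was not tested.

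Members called changed as follows, leaving single arrays aside. Mammary stage had 5 in place of 6 at standard gravity without arrays with foreign markers (Svil lost, adjusted p = 0.061), and in hypergravity 4 with only the groups compared (Actg1, 0.09, and Flna, 0.065, lost) and 5 by second probe sets. The mammary interaction had 1 (Vcl) by second probe sets and 1 (Vcl) without arrays with foreign markers. Hypergravity in lactating mammary gland had 2 with array weights (Actg1 0.78, adjusted p = 0.022; Ccn1 0.75, adjusted p = 0.015) and 1 (Ccn1) without arrays with foreign markers. Liver stage had 1 (Svil, adjusted p = 0.045) at standard gravity with dim probe sets removed, where fewer probe sets are tested, and 0 in hypergravity with only the groups compared. Mammary gland against adipose tissue had 7 in place of 5 with array weights (Myh9 and Flna gained) and 6 without arrays with foreign markers (Myh9 gained). Mammary gland against liver kept 6 by second probe sets (Actg1 lost, Itgb1 gained) and had 7 by the other Myh9 probe set. Liver against adipose tissue had 8 in place of 9 centred (Myh9 lost), by second probe sets (Actg1 lost) or by the other Myh9 probe set. Leaving out each array gave 4 to 6 members called for mammary stage at standard gravity and 5 to 6 in hypergravity, and 0 to 1 for hypergravity in lactation (Ccn1 without M212H, 0.95, adjusted p = 0.015), the mammary interaction (Vcl without M50H, 1.13, adjusted p = 0.011), liver stage at standard gravity (Svil without L42S, adjusted p = 0.04) and liver hypergravity in pregnancy. It gave 6 to 7 between mammary gland and liver, 5 to 6 between mammary gland and adipose tissue, 1 for liver stage in hypergravity and 9 between liver and adipose tissue.

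Probe sets called over the whole array moved more. Hypergravity in lactating mammary gland had 2928, and 5376 with array weights; the interaction 1250, 1996 with weights and 788 with M210H and A210H kept; mammary stage in hypergravity 9080, and 5923 with only its groups. Flight against the flight control had 114, and 204 with dim probe sets removed, 208 centred, 33 without arrays with foreign markers and 23 with only its groups; flight against vivarium 153, and 749 with weights, 414 with only its groups and 11 without those arrays. Liver hypergravity in pregnancy had 32, and 107 with weights. Without the 3 arrays high in milk protein genes, liver stage at standard gravity had 106 in place of 193 and liver hypergravity in lactation 80 in place of 126. Centring moved the share of higher calls from 48.3% to 35.9% for mammary gland against liver, from 53.1% to 68.5% for liver against adipose tissue and from 73.7% to 88.9% for flight against the flight control.

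With the letter A to D as a replicate block, 0 members were called in each comparison of the microgravity set, and probe sets called were 43, 91 and 0 in place of 114, 153 and 1. Whether the letters pair these arrays is not stated in the labels. Deviations of same-lettered arrays correlated from -0.15 to 0.08. This cannot decide it, since tissues of the same rat correlated from -0.05 to 0.33. With the rat as a block, 6, 5 and 9 members were called between tissues, as without it, and no other call changed.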

Other observations

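The arrays left out of every comparison had these member values. M210H, labelled mammary gland of a lactating rat in hypergravity, had Svil at 9.98, where the other mammary arrays of that group had 9.32 to 9.48 and the adipose arrays 10.35 to 10.69. Its Myh9 was 10.31 (10.91 to 11.37 and 10.50 to 10.84) and its Ccn2 7.79 (8.22 to 9.25 and 7.74 to 9.89). A210H, labelled adipose tissue of the same rat, had Svil at 8.54, Tln1 at 7.05 (7.87 to 8.92 in adipose tissue and 7.61 to 8.34 in mammary gland) and Vcl at 10.25 (10.70 to 11.28 and 10.66 to 11.19), each outside the range of both groups.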
